A study of Homo sapiens with 18 samples.

Results

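Glycosylphosphatidylinositol (GPI) anchors are glycolipids that the cell builds in the membrane of the endoplasmic reticulum (ER) and attaches to the C-terminus of proteins bound for the outer face of the plasma membrane. The anchor is assembled one sugar at a time on phosphatidylinositol, transferred whole to the protein by a transamidase, and then trimmed and remodeled in the ER and Golgi. The genes described here are the 30 named members of this pathway among the 25435 gene rows of the table, found by their gene names, a rule that takes in no measured value. They are the PIG genes, the 5 transamidase subunits, dolichol-phosphate mannose synthase with its partner MPDU1, and the genes that remodel the finished anchor.

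The members were measured by RNA-Seq in HEK293doxERN2 cells, a human embryonic kidney line in which doxycycline switches on a FLAG-tagged human ERN2 (IRE1β), an ER-resident kinase and endoribonuclease. ERN2 and its ubiquitous relative ERN1 splice XBP1 mRNA and can cleave other mRNAs at the ER, and thapsigargin, which blocks the ER calcium pump, causes ER stress. The 18 libraries fall into 6 groups of 3. Doxycycline was present for 24 hr at 0 ng/mL (no ERN2), 10 ng/mL (low ERN2) or 100 ng/mL (high ERN2), and cells of each dose were given either DMSO as vehicle or 200 nM thapsigargin for 3 hr. All groups, the uninduced ones included, carry the transgene, and the libraries come from a single line with no group that lacks it but received doxycycline. The effect of ERN2 therefore cannot be told apart from that of doxycycline itself. The labels number the libraries of a group without stating that they came from separate cultures, so the p-values measure the spread between these libraries, which may be technical.

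Library totals ran from 14876416 to 24652240 counts. ERN2 was at 9.10, 6.57 and 7.71 CPM (counts scaled to the size of the library) without doxycycline in vehicle, 22.5, 27.1 and 55.9 CPM at 10 ng/mL and 252, 309 and 249 CPM at 100 ng/mL. With thapsigargin it was at 14.2, 10.4 and 12.0, then 32.1, 53.9 and 112, then 272, 175 and 175 CPM at the same doses, so no library went against its dose label. HSPA5, the ER chaperone BiP, lay between 468 and 965 CPM in vehicle and between 1922 and 4773 CPM with thapsigargin. The 4 markers of the HEK293 line reached 1 CPM, whereas 7 of 9 colon epithelium markers did not, although a protocol field of the labels names colon crypts as the source of the RNA. Library 1 of the 100 ng/mL thapsigargin group had the lowest mean correlation with its own group, at 0.977, and results that rest on it are given with and without it.

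Among the members, 29 passed the filter on low counts and were tested in every comparison. PIGY, the smallest subunit of the first enzyme, had 0 counts in all 18 libraries, and so did PYURF, a gene that shares its transcript. A count of 0 allows up to 3 assigned counts per library, or 0.122 to 0.202 CPM. PIGY overlaps PYURF over 217 bases on the same strand, and how reads of such pairs were assigned is not given in the sources used here, so the 0 sets no limit on the mRNA itself. The other members had at least 36 counts in each library.

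IRE1 enzymes cut XBP1 mRNA in short loops, and the letters CTGCAG are often used to look for similar sites. Since the members lower at 100 ng/mL are the main result here, their coding sequences (1 transcript per gene, GENCODE release 29) were searched for these letters on the sense strand. The letters occur 2 times in PIGT, in exons 2 and 9, and once in PIGQ, in exon 5. The windows of 30 coding bases around them lie at chr20:45416627-45416656 and chr20:45421424-45421453 for PIGT and at chr16:578394-578423 for PIGQ, all on the plus strand (GRCh38). They are shown with the letters in capitals, and the coding base given is that of the first capital:
PIGT, coding base 310: gggccacccttcCTGCAGgccccatcaggt
PIGT, coding base 1087: agtggctatgggCTGCAGaagggggagctg
PIGQ, coding base 970: ctccagcatctgCTGCAGtggctgatgggt
The letters occur 6 times in GPAA1 and not at all in PIGK or PIGN. Of the members called lower with thapsigargin only, PIGO holds them 5 times, PIGV and MPPE1 3 times each and PIGH 1 time. PIGS, MPDU1 and PIGC do not hold them. Of the 30 members 17 hold them (56.7%), against 67.5% of 19669 genes with a coding transcript. Of the 5 members called lower at 100 ng/mL in vehicle 3 hold them (60.0%). The share was 79.8% of 1033 genes called lower there and 70.4% of 12747 genes tested. These shares are not corrected for length. The median coding length was 1665 bases in the genes called lower, 1434 in the genes tested and 1228 in the members. Per kilobase of coding sequence the median number of matches was 0.989, 0.858 and 0.589 in the same order. A match describes the letters only and is not a cleavage site.

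At 100 ng/mL doxycycline without thapsigargin, 5 of the 29 tested members fell and 0 rose (edgeR quasi-likelihood test, Benjamini-Hochberg adjusted p under 0.01, as in all comparisons below). The share was 17.2%, beside 8.33% of all 14444 genes tested that changed in either direction and 7.49% that fell. The 5 were PIGT, GPAA1 and PIGK of the transamidase, PIGN, which adds ethanolamine phosphate to the first mannose, and PIGQ of the first enzyme. The median log2 fold change of the members was -0.35, against -0.01 over all genes tested, and 27 of the 29 were below 0 (50.8% of all genes), a count that held with RLE size factors and with DESeq2. In 13 members all 3 libraries at 100 ng/mL lay below all 3 without doxycycline, which 16.1% of all genes tested did. In bulk RNA, fewer cells of a kind and less RNA per cell cannot be told apart.

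**Figure D1:**
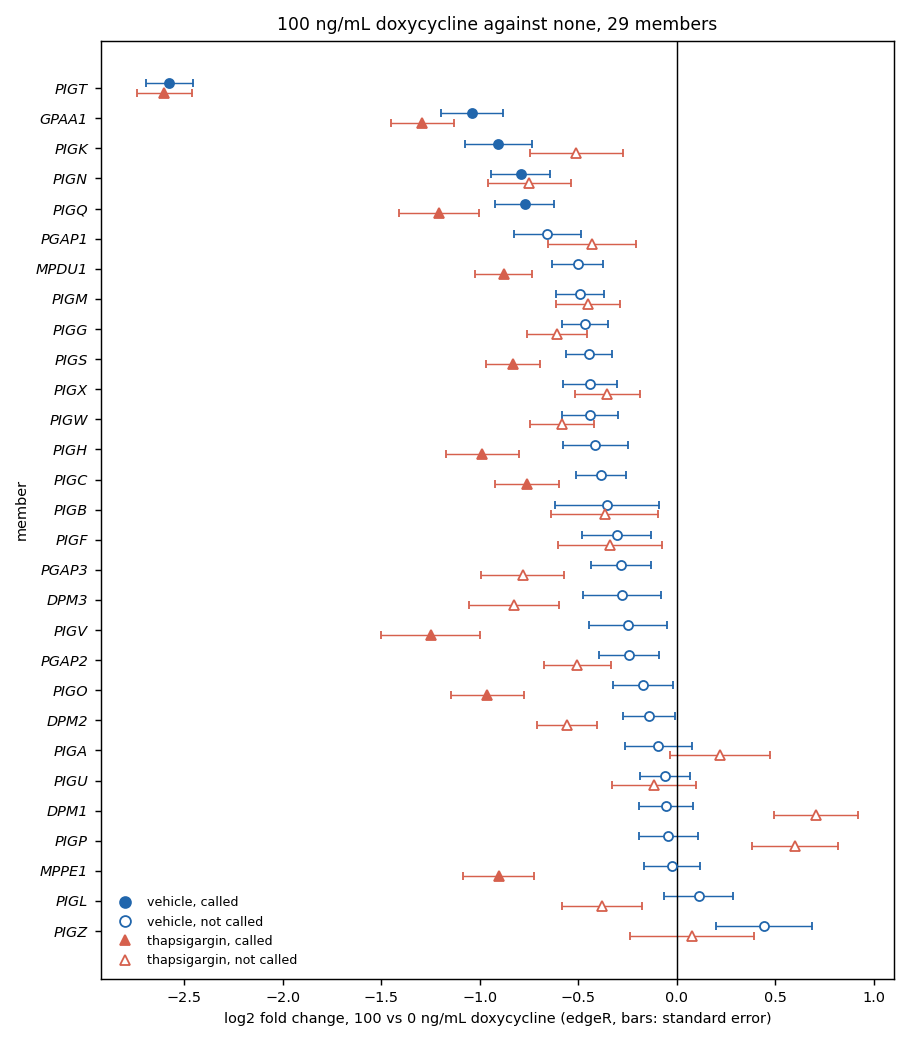
Log2 fold change of the 29 tested members between 100 and 0 ng/mL doxycycline (x axis, edgeR, bars show the standard error) in vehicle (circles) and with thapsigargin (triangles), ordered by the vehicle value; filled symbols passed an adjusted p of 0.01. PIGT stands apart at -2.58 and -2.60, most members lie below 0, and DPM1, PIGP, PIGA and PIGZ, which did not pass, lie above 0 with thapsigargin.

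The transamidase, the complex that cleaves the C-terminal signal of the protein and joins the anchor to it, held the largest decrease. PIGT, the subunit at its centre, was at 203, 186 and 189 CPM in uninduced cells, 104, 134 and 63.7 CPM at 10 ng/mL and 29.2, 34.1 and 36.3 CPM at 100 ng/mL. With thapsigargin the same doses gave 182, 177 and 184, then 117, 97.8 and 63.7, then 30.3, 30.1 and 29.2 CPM. No library at one dose overlapped those of another dose, with or without thapsigargin. PIGT fell 5.97-fold at 100 ng/mL (log2 fold change -2.58, SE 0.120, adjusted p = 1.06e-07), and against 10 ng/mL it fell 3.09-fold (log2 fold change -1.63, SE 0.236, adjusted p = 0.00390). The second call was lost on leaving out library 2 at 10 ng/mL (adjusted p = 0.0203) or library 1 or 3 at 100 ng/mL (adjusted p = 0.0153 and 0.0309). At 10 ng/mL its difference from uninduced cells did not pass (log2 fold change -0.94, SE 0.198, adjusted p = 0.0503).

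**Figure D2:**
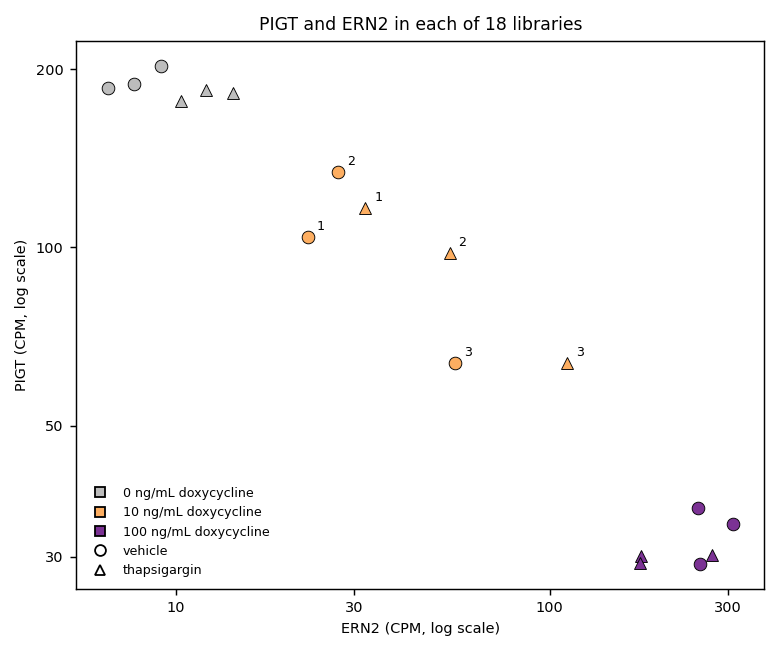
PIGT against ERN2 in each of 18 libraries, both in CPM on log axes; colour gives the dose of doxycycline, shape the treatment, and numbers the libraries at 10 ng/mL. The 6 uninduced libraries lie at 177 to 203 CPM of PIGT, the 6 at 100 ng/mL at 29.2 to 36.3 CPM, and those at 10 ng/mL between them.

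In PIGT and, relative to its level, in ERN2 the libraries at 10 ng/mL were spread more widely than those of the other doses. Library 3 had the most ERN2 in both treatments, at 55.9 CPM in vehicle and 111.5 CPM with thapsigargin, and it also had the least PIGT, at 63.7 CPM in each. Library 1 in vehicle had the least ERN2, at 22.5 CPM, yet less PIGT than library 2. The part of the ERN2 level in the missed call at this dose was not tested.

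GPAA1, the subunit thought to bind the anchor, was at 74.4, 64.8 and 63.1 CPM in uninduced cells, 61.6, 73.6 and 61.5 CPM at the low dose and 27.0, 41.6 and 32.5 CPM at the high dose. Libraries at 0 and 10 ng/mL overlapped and those at 100 ng/mL lay below both. It fell 2.05-fold from 0 to 100 ng/mL (log2 fold change -1.04, SE 0.158, adjusted p = 5.62e-04) and 1.98-fold from 10 to 100 ng/mL (log2 fold change -0.98, SE 0.163, adjusted p = 0.00677), while the 10 ng/mL difference was -0.04 on the log2 scale (adjusted p = 0.820). The call against 10 ng/mL was lost without library 2 at 10 ng/mL (adjusted p = 0.0468) and without library 1 or 3 at 100 ng/mL (0.0227 and 0.0499). PIGT and GPAA1 were the 2 members called between 100 and 10 ng/mL in vehicle, 6.9% of those tested against 2.45% of all genes.

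PIGK, the cysteine protease of the complex, was at 48.4, 69.4 and 55.3 CPM in uninduced cells, 45.0, 39.3 and 30.3 CPM at 10 ng/mL and 37.9, 24.9 and 32.5 CPM at 100 ng/mL. It fell 1.87-fold at the high dose (log2 fold change -0.91, SE 0.169, adjusted p = 0.00263), a call that was lost with all 6 groups in the fit (adjusted p = 0.0116). PIGS was at 111, 104 and 121, then 111, 115 and 115, then 74.9, 89.1 and 90.3 CPM in vehicle, and its difference at 100 ng/mL did not pass (log2 fold change -0.44, SE 0.117, adjusted p = 0.0227). PIGU, a membrane subunit, had a log2 fold change of -0.06 (SE 0.128, adjusted p = 0.784), with its libraries between 20.8 and 24.1 CPM at those 2 doses.

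**Figure D3:**
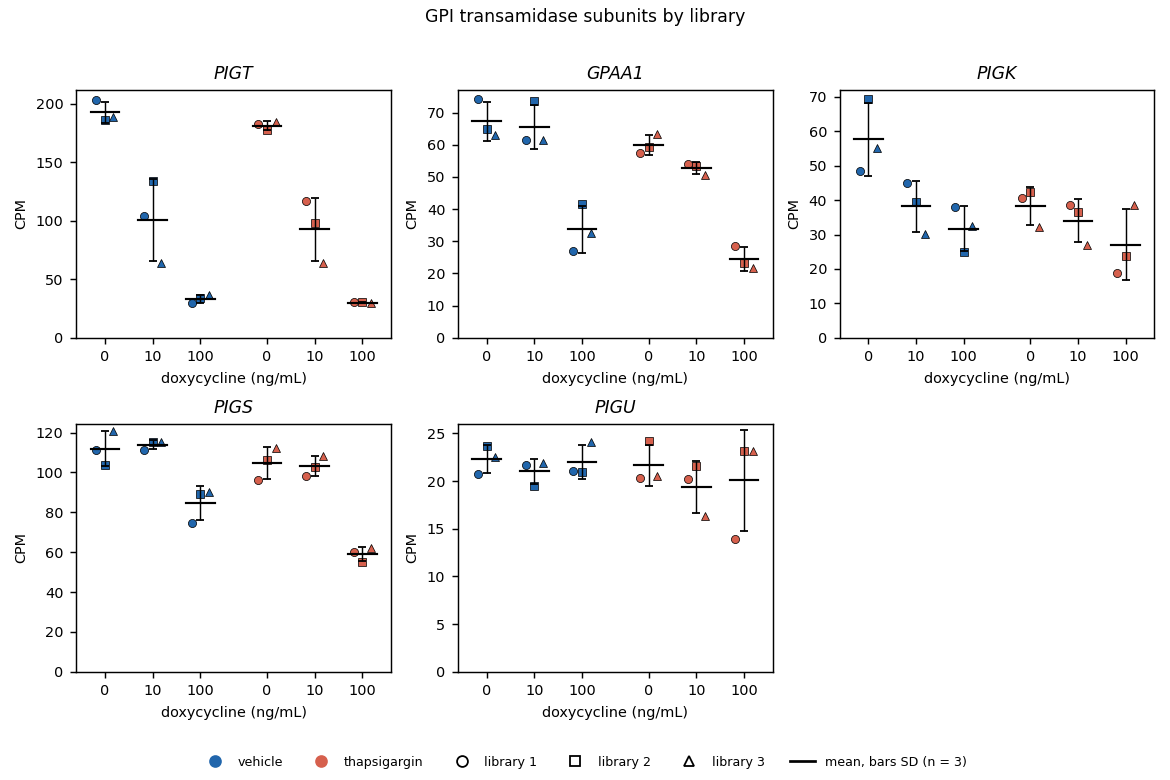
Expression of the 5 transamidase subunits in CPM (y axis, from 0) by dose of doxycycline (x axis, ng/mL) in vehicle (blue) and thapsigargin (red); points are libraries and bars mean ± SD (n = 3). The PIGT libraries of each dose lie below those of the dose before, those of GPAA1 are lower at 100 ng/mL, and PIGU lies between 13.9 and 24.2 CPM in all libraries.

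Per kilobase of transcript, PIGT was the highest of the 30 members in uninduced cells, at 85.8 ± 3.97 CPM per kb (mean ± SD, n = 3), ahead of DPM1 at 70.2 ± 11.9, whose libraries overlapped those of PIGT only in part. At 100 ng/mL PIGT was the 9th of the 30 in vehicle, at 14.8 ± 1.62 CPM per kb, and the 7th with thapsigargin. Of the summed CPM per kb of the 5 transamidase subunits in vehicle, PIGT held 46.8% ± 1.10 (SD, n = 3) in uninduced cells, 32.0% ± 7.28 at 10 ng/mL and 18.3% ± 0.665 at 100 ng/mL. PIGS held 21.2% ± 1.60 without doxycycline and 36.4% ± 0.732 at 100 ng/mL and had become the most abundant subunit by this measure. The sum itself was 183 ± 4.24 CPM per kb without doxycycline and 80.9 ± 6.66 at 100 ng/mL. These mRNA shares take 1 transcript length per gene and do not give the makeup of the protein complex.

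The first enzyme of the pathway moves N-acetylglucosamine onto phosphatidylinositol and has PIGA as its catalytic subunit. Of its 5 tested subunits, 1 fell at 100 ng/mL in vehicle. PIGQ was at 70.0, 61.1 and 57.9 CPM in uninduced cells, 45.3, 55.3 and 51.4 CPM at 10 ng/mL and 34.4, 46.1 and 33.2 CPM at 100 ng/mL (log2 fold change -0.77, SE 0.148, adjusted p = 0.00317 for 100 against 0 ng/mL). Without uninduced library 1 or high-dose library 3 the adjusted p of PIGQ was 0.0197 and 0.0158. The log2 fold changes of PIGA, PIGC, PIGH and PIGP lay between -0.41 and -0.04, none of them past the threshold. PIGL, the deacetylase of the next step, and PIGW, which acylates the inositol, were at 0.11 and -0.44 and did not pass either.

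None of the 5 mannosyltransferase genes passed at 100 ng/mL in vehicle, with log2 fold changes from -0.49 for PIGM to 0.44 for PIGZ. Among the 4 ethanolamine phosphate transferase genes, PIGN fell from 36.8, 51.6 and 39.0 CPM to 25.8, 22.7 and 27.3 CPM (log2 fold change -0.79, SE 0.149, adjusted p = 0.00267), with 32.6, 33.7 and 28.9 CPM at 10 ng/mL. PIGO, PIGG and their shared partner PIGF had log2 fold changes of -0.17, -0.46 and -0.31 and did not pass. Neither did DPM1, DPM2, DPM3 and MPDU1, which make and present the mannose donor, at -0.50 to -0.05. The remodeling genes PGAP1, MPPE1, PGAP3 and PGAP2 ranged from -0.66 to -0.02. The 2 members nearest to a call were PIGM (adjusted p = 0.0151) and PIGG (adjusted p = 0.0177).

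At 10 ng/mL without thapsigargin, 0 members passed in either direction, beside 0.193% of 14497 genes. An unadjusted p under 0.05, a level not counted over all genes, was found in 9 of the 29. DESeq2 called 1 (3.45%, beside 1.93% of all genes) and edgeR without the filter on low counts called 2 (6.9%), all of them lower. That last fit called 155 of 19842 genes higher and 468 lower. Leaving out library 1 at 10 ng/mL gave 3 called members (10.3%), beside 18.8% of all genes in that fit. The median log2 fold change was -0.10 against 0.00 over all genes, and 18 members lay below 0 (49.7% of all genes). PIGT (adjusted p = 0.0503) and PIGK (log2 fold change -0.60, SE 0.167, adjusted p = 0.0792) came nearest. Because all comparisons with uninduced vehicle cells share those 3 libraries, their values are given side by side and not as independent evidence.

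**Figure D4:**
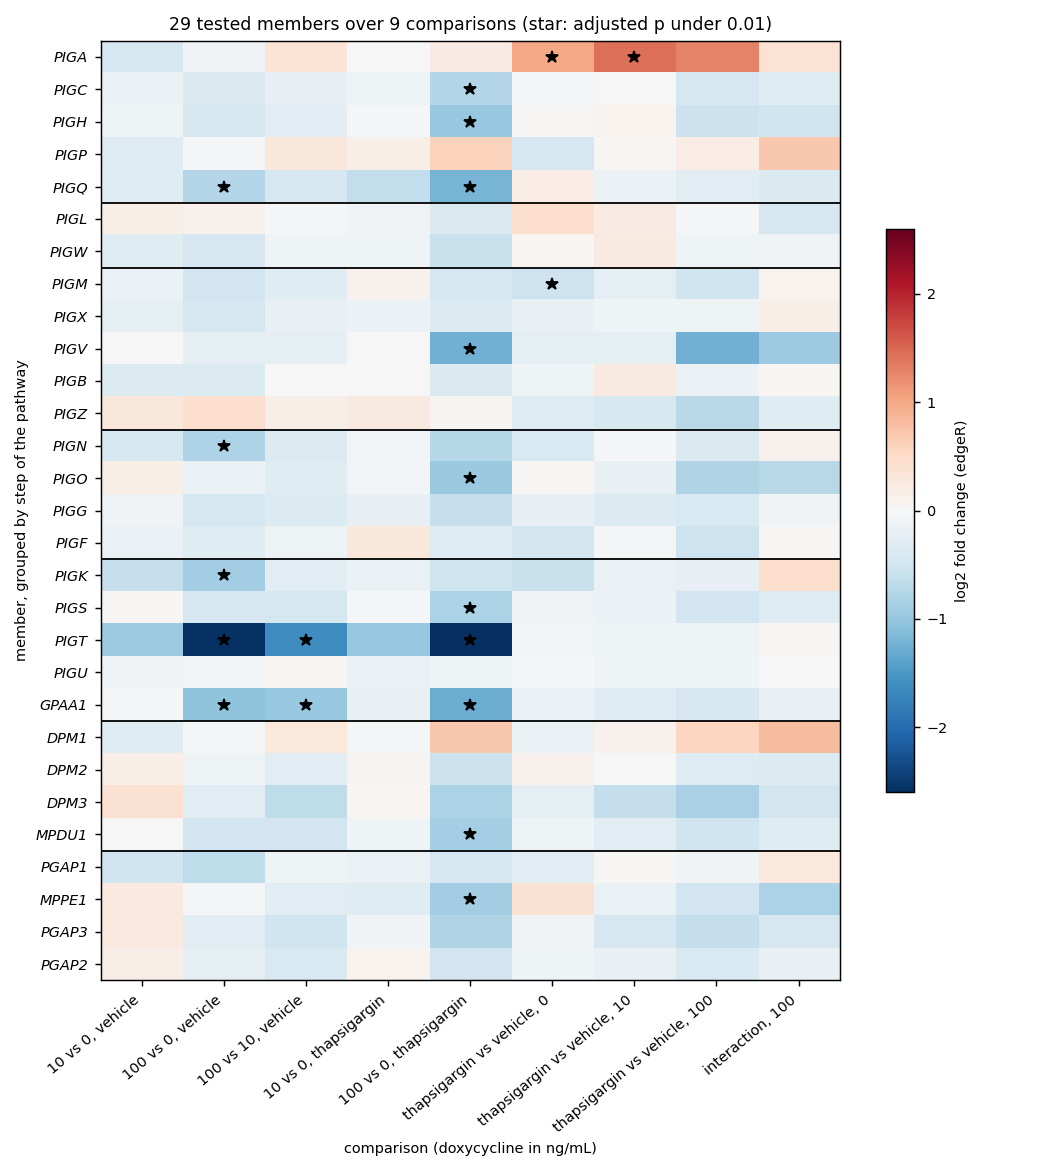
Log2 fold change (colour, edgeR, scale symmetric about 0) of the 29 tested members, in rows by step of the pathway, over 9 comparisons in columns; a star marks an adjusted p under 0.01. PIGT is the darkest blue cell in the columns of 100 against 0 ng/mL and of 100 against 10 ng/mL, PIGA is red in the 3 thapsigargin columns with 2 stars, and 10 stars fall in the column of 100 against 0 ng/mL with thapsigargin.

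Thapsigargin moved few members in cells without doxycycline. PIGA rose and PIGM fell, so 2 of 29 members were called (6.9%) beside 11.2% of 14397 genes tested. PIGA was at 15.2, 20.7 and 21.5 CPM in vehicle and 35.8, 38.8 and 40.5 CPM with thapsigargin, a 2.02-fold increase with no overlap between the groups (log2 fold change 1.02, SE 0.145, adjusted p = 4.02e-04). PIGM, the catalytic subunit of the first mannosyltransferase, was at 48.0, 53.4 and 43.7 CPM and 33.0, 35.3 and 30.6 CPM (log2 fold change -0.54, SE 0.121, adjusted p = 0.00668). Its call was lost in 5 of the 6 fits that left out 1 library, with adjusted p from 0.0117 to 0.0252, and kept without thapsigargin library 3. PIGM lies within the interval that the annotation gives to KCNJ10 on the same strand, so reads there may be shared. PIGK and MPPE1 came nearest to a call, at -0.58 (adjusted p = 0.0156) and 0.40 (adjusted p = 0.0469).

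The increase of PIGA was seen again at 10 ng/mL, where it was the 1 member called (3.45%, beside 1.45% of 14607 genes). The libraries were at 14.3, 13.6 and 14.3 CPM in vehicle and 38.6, 35.0 and 40.9 CPM with thapsigargin, a 2.70-fold difference (log2 fold change 1.43, SE 0.129, adjusted p = 3.01e-04). This holds in each fit that left out 1 library, where 1 member was called every time. PIGM was at 47.9, 43.5 and 37.8 CPM and 37.3, 37.5 and 33.6 CPM at this dose, which did not pass (-0.26, adjusted p = 0.257).

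At 100 ng/mL, 0 members passed between thapsigargin and vehicle, beside 0.201% of 14427 genes. DESeq2 called 3 (10.3%), beside 3.68% of all genes. In edgeR 16 members had an unadjusted p under 0.05, a level not counted over all genes. PIGA was at 19.3, 15.2 and 20.9 CPM in vehicle and 25.9, 44.0 and 64.7 CPM with thapsigargin (log2 fold change 1.30, SE 0.286, adjusted p = 0.0405), without overlap. Without thapsigargin library 1, whose PIGA was the lowest of the 3, 7 members were called beside 17.6% of 14575 genes. They were PIGA (1.55, adjusted p = 1.40e-04) and DPM1 (0.75, adjusted p = 0.00184), both higher, and DPM3, PGAP3, PIGO, PIGV and PIGZ, all lower, with log2 fold changes of -1.50 to -0.80. With all libraries the median of the members was -0.39 against 0.00 over all genes, and 26 of 29 lay below 0 (50.3% of all genes).

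**Figure D5:**
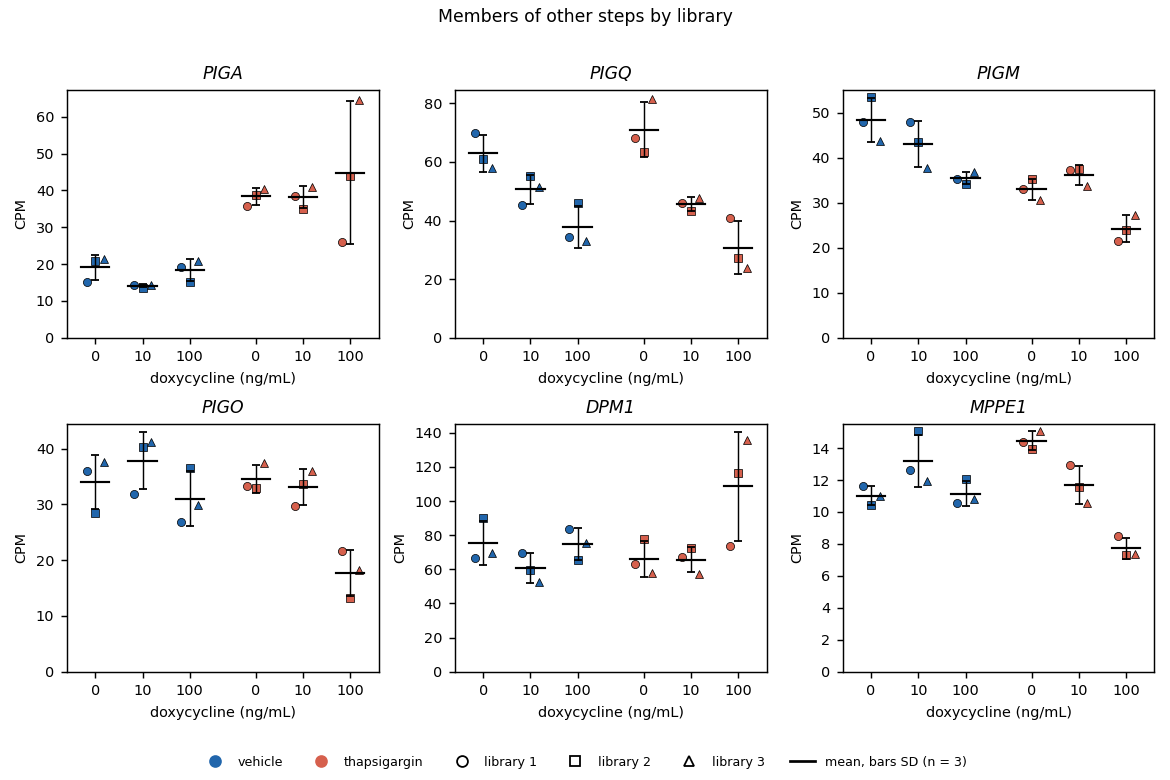
Expression of 6 members outside the transamidase in CPM (y axis, from 0) by dose of doxycycline (x axis, ng/mL) in vehicle (blue) and thapsigargin (red); points are libraries and bars mean ± SD (n = 3). Every thapsigargin library of PIGA lies above the vehicle libraries of its dose, PIGO and MPPE1 are lowest at 100 ng/mL with thapsigargin, and library 1 of that group has the lowest DPM1 and PIGA of its group.

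Between 100 and 0 ng/mL in thapsigargin-treated cells, 10 members fell and 0 rose. That was 34.5% of the 29, beside 10.5% of 14358 genes that changed and 9.0% that fell. The 10 came from 6 of the 7 steps, namely PIGT, GPAA1 and PIGS of the transamidase, PIGQ, PIGH and PIGC of the first enzyme, PIGV, PIGO, MPDU1 and MPPE1. The median log2 fold change was -0.58 against 0.04 over all genes, 25 members lay below 0 (46.1% of all genes), and in 19 all libraries at 100 ng/mL lay below all uninduced ones, which 20.4% of all genes did. Without thapsigargin library 1 at 100 ng/mL the count was 17, of which 15 lower (58.6% called, beside 27.2% of all genes). Without library 2 of that group it was 2 (6.9%), near the 5.23% of all genes called in that fit.

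PIGT fell 6.08-fold (log2 fold change -2.60, SE 0.139, adjusted p = 5.11e-07), from the values given above. GPAA1 fell 2.45-fold, from 57.4, 59.3 and 63.5 CPM without doxycycline to 28.6, 23.4 and 21.6 CPM at 100 ng/mL (log2 fold change -1.29, SE 0.161, adjusted p = 1.23e-04), with 54.1, 53.4 and 50.8 CPM at 10 ng/mL. These were the 2 members called in each fit that left out 1 library. PIGS was at 96.4, 106 and 112, then 98.5, 103 and 108, then 59.9, 55.1 and 62.2 CPM over the 3 doses (log2 fold change -0.83, SE 0.138, adjusted p = 0.00100). PIGS overlaps AC005726.1, annotated as protein-coding, over 18490 bases on the same strand, so reads there may be shared. PIGK, called in vehicle, was at 40.5, 42.3 and 32.1, then 38.6, 36.6 and 27.0, then 18.8, 23.8 and 38.5 CPM and did not pass (log2 fold change -0.51, SE 0.236, adjusted p = 0.142). PIGU had a log2 fold change of -0.12 (adjusted p = 0.734).

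Of the first enzyme, PIGQ, PIGH and PIGC fell. PIGQ was at 68.1, 63.6 and 81.6 CPM in uninduced cells, 45.9, 43.2 and 47.8 CPM at 10 ng/mL and 41.0, 27.2 and 23.8 CPM at 100 ng/mL (log2 fold change -1.21, SE 0.203, adjusted p = 0.00111). PIGH was at 12.5, 14.4 and 14.9, then 12.2, 14.6 and 13.8, then 7.39, 6.13 and 7.49 CPM (log2 fold change -0.99, SE 0.185, adjusted p = 0.00228). PIGC was at 22.6, 24.1 and 23.6, then 22.2, 22.8 and 19.8, then 13.0, 13.3 and 15.2 CPM (log2 fold change -0.76, SE 0.163, adjusted p = 0.00553). In each of the 3 the high-dose libraries lay below all others with thapsigargin. In vehicle PIGH was at 10.8, 15.2 and 15.1, then 11.8, 12.3 and 14.2, then 10.1, 11.1 and 10.5 CPM, and PIGC at 25.3, 24.5 and 22.3, then 21.5, 21.2 and 22.5, then 19.4, 17.8 and 19.8 CPM. PIGA and PIGP did not pass at 0.22 and 0.60, but without library 1 PIGP was higher (0.79, adjusted p = 0.00223).

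PIGV, which adds the second mannose, was at 7.96, 7.10 and 6.21 CPM in uninduced cells, 9.05, 7.68 and 4.91 CPM at 10 ng/mL and 3.77, 2.68 and 2.48 CPM at 100 ng/mL with thapsigargin (log2 fold change -1.25, SE 0.250, adjusted p = 0.00359). In vehicle its 3 doses gave 10.1, 7.71 and 7.37, then 9.71, 8.77 and 7.10, then 7.20, 8.77 and 5.79 CPM, which overlapped. PIGO, which adds the ethanolamine phosphate that joins the anchor to the protein, was at 33.4, 32.9 and 37.4, then 29.7, 33.7 and 36.0, then 21.6, 13.3 and 18.2 CPM with thapsigargin (log2 fold change -0.96, SE 0.186, adjusted p = 0.00282) and 36.0, 28.5 and 37.5, then 31.9, 40.3 and 41.1, then 26.8, 36.5 and 29.9 CPM in vehicle. PIGN, called in vehicle, was at 29.6, 39.1 and 27.3, then 34.6, 32.8 and 25.4, then 16.9, 15.8 and 24.8 CPM and did not pass (log2 fold change -0.75, SE 0.210, adjusted p = 0.0245). PIGM was at 35.3, 34.1 and 36.8 CPM in vehicle and 21.4, 24.0 and 27.3 CPM with thapsigargin at 100 ng/mL, and its difference between doses did not pass in either treatment.

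MPDU1, which presents dolichol-phosphate sugars to the enzymes of the ER lumen, was at 68.4, 75.7 and 79.9, then 67.5, 73.8 and 66.2, then 41.6, 36.1 and 44.3 CPM with thapsigargin (log2 fold change -0.88, SE 0.147, adjusted p = 0.00104) and at 81.6, 77.2 and 86.1, then 78.2, 87.9 and 82.3, then 49.3, 61.3 and 67.2 CPM in vehicle (-0.50, adjusted p = 0.0201). MPPE1, the phosphodiesterase that removes an ethanolamine phosphate from the attached anchor, was at 14.4, 13.9 and 15.1, then 13.0, 11.6 and 10.5, then 8.48, 7.32 and 7.38 CPM with thapsigargin (log2 fold change -0.90, SE 0.178, adjusted p = 0.00323) and at 11.6, 10.4 and 11.0, then 12.6, 15.0 and 11.9, then 10.6, 12.1 and 10.8 CPM in vehicle. Its vehicle libraries overlapped, and those with thapsigargin did not overlap between 100 ng/mL and the other doses. DPM1, the catalytic subunit of dolichol-phosphate mannose synthase, was the member with the highest log2 fold change, from 63.3, 77.8 and 57.6 CPM to 73.5, 117 and 136 CPM, and did not pass (log2 fold change 0.71, SE 0.214, adjusted p = 0.0345). Without library 1 it was called (0.94, adjusted p = 7.68e-05), while its partners DPM2 and DPM3 were called lower (-0.66 and -0.98).

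The calls other than those of PIGT and GPAA1 were close to the threshold. Leaving out library 2 at 100 ng/mL took the other 8 past an adjusted p of 0.01, to between 0.0120 for PIGQ and 0.0384 for PIGC. Uninduced libraries 1, 2 and 3 each cost 4 or 5 calls, among PIGC, PIGH, PIGO, PIGV and MPPE1. Their adjusted p then lay between 0.0102 and 0.0340. Without library 3 at 100 ng/mL PIGV was lost (0.0109). All of them kept a negative log2 fold change in these fits.

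At 10 ng/mL with thapsigargin, 0 members passed, as did 0.0% of 14509 genes, while DESeq2 called 2 (6.9%, beside 0.196% of all genes). In edgeR 3 members had an unadjusted p under 0.05, a level not counted over all genes. PIGT was at -0.98 (SE 0.189, adjusted p = 0.292) and PIGQ at -0.65 (SE 0.125, adjusted p = 0.292). In this comparison libraries of the same number deviated together, and with the replicate number as a block PIGT (-1.01, adjusted p = 1.62e-06) and PIGQ (-0.64, adjusted p = 5.09e-06) fell, beside 3.89% of all genes called. The labels do not state that libraries of the same number belong together, so reading the block here rests on deviations in these same data. For both genes all 3 libraries at 10 ng/mL lay below all 3 uninduced ones, so each same-numbered pair did too. This was not counted over all genes.

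Whether thapsigargin changed the effect of 100 ng/mL doxycycline was tested as an interaction over 12 libraries. It was called for 0 of 29 members, beside 0.0406% of 14768 genes, and by DESeq2 for 1 (3.45%, beside 1.65% of all genes). In edgeR 7 members had an unadjusted p under 0.05, a level not counted over all genes. PIGT had an interaction of 0.03 (SE 0.145) on the log2 scale and GPAA1 of -0.19 (SE 0.213). A member called in one treatment and not in the other, such as PIGK, PIGV or PIGO, was thus not shown to differ between them. MPPE1 (log2 fold change -0.82, SE 0.183, adjusted p = 0.0485) and PIGV (log2 fold change -0.94, SE 0.302, adjusted p = 0.0982) came nearest. Without thapsigargin library 1 at 100 ng/mL, MPPE1 (-0.95, adjusted p = 0.00534) and DPM1 (0.98, adjusted p = 0.00569) were called, as were 8.6% of all genes.

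Of the 29 tested members, 14 were called in at least 1 of the 9 comparisons and 15 in none. The 15 were PIGP of the first enzyme, PIGL and PIGW, the mannosyltransferase genes PIGX, PIGB and PIGZ, the ethanolamine phosphate transferase genes PIGG and PIGF, PIGU, DPM1, DPM2 and DPM3, and the remodeling genes PGAP1, PGAP2 and PGAP3. Their log2 fold changes at 100 against 0 ng/mL ran from -0.66 to 0.44 in vehicle and from -0.83 to 0.71 with thapsigargin. PIGZ, which adds a further side mannose to some anchors, had the lowest level per kilobase of the members with counts, at 1.32 ± 0.465 CPM per kb in uninduced cells and 1.85 ± 0.197 at 100 ng/mL (mean ± SD, n = 3).

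Genes that act beside the members were counted with the same fits, and their shares are read against the 7.49% of all genes that fell at 100 ng/mL in vehicle and the 9.0% that fell with thapsigargin. Fits with 1 library left out have shares of their own. They called 6.27% to 9.56% of all genes in vehicle and 5.23% to 27.2% with thapsigargin. In the fit without thapsigargin library 1 at 100 ng/mL, 1993 of 14527 genes fell and 27.2% were called. Of 8 tested accessory genes of the pathway, 3 fell in vehicle (37.5%), led by CLPTM1L (-1.40), a scramblase of an early anchor intermediate, and GPLD1 (-1.33), a phospholipase that releases anchored proteins. With thapsigargin 5 of 8 fell (62.5%), CLPTM1L again with the smallest adjusted p (-2.10). That count was 2 without uninduced library 1 or 2, 3 without uninduced library 3 or library 2 or 3 at 100 ng/mL, and 6 without library 1 at 100 ng/mL. Of the proteins that carry the anchor, 15 of 51 tested genes fell in vehicle (29.4%) and 0 rose, with a median log2 fold change of -0.53. They were led by CD59 (-1.79), a complement inhibitor, and the glypicans GPC3 (-2.25) and GPC1 (-1.85). With thapsigargin 18 of 50 fell (36.0%). With 1 library left out, 12 to 18 of the genes for anchored proteins were called in vehicle. With thapsigargin 12 to 21 were, the most of them without library 1 at 100 ng/mL. Other users of dolichol-phosphate sugars fell in 5 of 18 genes in vehicle (27.8%) and 7 of 18 with thapsigargin (38.9%). The second count was 4 without uninduced library 1 or 2, 3 without library 2 at 100 ng/mL and 8 without library 1 of that group.

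Dolichol supply fell in 1 of 5 genes in both treatments (20%), SRD5A3 in each case (-1.61 in vehicle, -1.45 with thapsigargin). The thapsigargin call was lost without uninduced library 1 or 2 or library 2 at 100 ng/mL (adjusted p = 0.0197, 0.0134 and 0.0201), and without library 1 at 100 ng/mL the count was 3. In vehicle the count was 2 without library 1 or 2 at 100 ng/mL. Of 6 genes for the exit of anchored proteins from the ER, the COPII coat genes SEC24D and SEC24C rose in vehicle at 100 ng/mL (1.64 and 0.87, 33.3% beside 8.33% of all genes changed), in each fit that left out 1 library as well. At 10 ng/mL both were also called (1.07 and 0.69, beside 0.193% of all genes), but neither call held without any 1 of the uninduced libraries or without library 2 at 10 ng/mL, and that of SEC24C was lost without library 3 too. The adjusted p of SEC24D was then 0.0117 to 0.0427 and that of SEC24C 0.0303 to 0.0712. With thapsigargin at 100 ng/mL TMED9 was the 1 gene of the 6 that fell (-1.05), a call lost without library 2 at that dose (adjusted p = 0.0162). Between thapsigargin and vehicle, 5 of 51 genes for anchored proteins fell and 1 rose without doxycycline (11.8%, beside 11.2% of all genes), and 2 of 52 fell and 1 rose at 10 ng/mL (5.77%, beside 1.45%). The 6 calls without doxycycline became 3 without vehicle library 1 or thapsigargin library 2. The 3 at 10 ng/mL became 0 without vehicle library 2 or 3 or thapsigargin library 2, 1 without thapsigargin library 1 and 5 without thapsigargin library 3. That last fit called 3.32% of all genes.

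Promoters of 25 members matched by symbol in the RefSeq table (300 bases, 250 before and 50 after the start, GRCh38.p14) were searched on both strands for letters known from the unfolded protein response. None of the 25 held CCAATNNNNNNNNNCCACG (ERSE), ATTGGNCCACG (ERSE-II), TGACGTG (the core of UPRE) or TGATGNAA (CARE). Of all 27305 promoters, 0.0806%, 0.0549%, 2.0% and 3.67% did. These windows are short and the absence of the letters there says nothing of the factors.

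Some members share their place with other genes in GENCODE release 29 on GRCh38. PIGT lies at chr20:45416067-45456934 on the plus strand and overlaps a long noncoding RNA on the other strand over 13054 bases, and PIGA lies at chrX:15319451-15335580 on the minus strand with no overlap. PIGW lies wholly within the interval of MYO19 on the other strand. On the same strand, and so not separable by strand, PIGQ overlaps NHLRC4 over 2500 bases and Z98883.1 over 7421 bases. PIGU overlaps NCOA6 over 9694 bases and PIGX overlaps NRROS over 22230 bases in the same way, beside the overlaps of PIGY, PIGM and PIGS given above. PIGN overlaps a pseudogene, and PIGL and PIGT each a microRNA gene, on the same strand. Which strand was counted is not given in the sources used here, so reads of such pairs cannot be told apart with certainty.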

How the data were processed

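RNA-Seq was performed in 18 libraries of HEK293doxERN2 cells. Per the labels and the study's methods, KAPA stranded libraries were read for 75 cycles and aligned with STAR to hg38 in the VIPER pipeline, and the authors deposited raw counts per gene symbol, with no normalization. The STAR version, annotation and strand setting are not given in the sources used here. Of 25435 rows, 28 carry a date in place of a symbol. All 18 columns were mapped through the labels.

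Counts of the groups compared were filtered with filterByExpr (minimum count 10), normalized by TMM and tested with the quasi-likelihood test of edgeR 4.0.16 in R 4.3.3, with Benjamini-Hochberg adjustment over all genes and a threshold of 0.01. SE was taken as |log2 fold change| over the root of the F statistic. CPM were scaled by TMM over all 18 libraries. The exact permutation test of 3 against 3 libraries cannot go below p = 0.1 and was not used. All replicates were kept apart, since their counts were not alike within sampling noise (chi-square per degree of freedom 7.33 to 63.8). The correlations of deviations between same-numbered libraries all passed 0.1 only between 10 and 0 ng/mL with thapsigargin, at 0.343 to 0.468. They were 0.083 to 0.27 for thapsigargin without doxycycline and -0.033 to 0.499 for it at 10 ng/mL. At 100 against 10 ng/mL in vehicle they were -0.017 to 0.521, and in the remaining comparisons they lay between -0.369 and 0.288. Tested on simulated counts for 100 against 0 ng/mL in vehicle (200 genes changed by a factor of 2), edgeR recovered 90.5% of the 199 among 14444 genes with 0.552% of calls false; for the interaction it recovered 32.7% of 199 among 14684.

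Members, lists and comparisons were chosen with earlier results of these data known. By the rule used, each member may be named, values per library are given for called members, and the 2 nearest to a call and up to 3 called genes per list are named. Alternatives were DESeq2 1.42.0, RLE size factors, no filter, all 6 groups in the fit, a replicate block, a threshold of 0.05 and each library left out. Transcripts were the APPRIS principal ones of GENCODE release 29. All errors rest on 3 libraries per group. Plots were made in Python 3.11.15 with matplotlib 3.10.9.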

Additional observations from a re-analysis of the deposited data

How the results depend on the processing

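Of 20 calls of a member in a comparison, checked 240 times in all under the alternatives, 200 kept direction and threshold, 40 lost the threshold and 0 changed direction. The check at 0.05 reads the main fit again, so each of the 20 calls passes it by definition and is among the 200. At 100 against 0 ng/mL in vehicle 5 members were called, against 11 at an adjusted p of 0.05, 10 by DESeq2, 8 with all 6 groups in the fit, 2 with the replicate block (6.9%, without PIGK, PIGN and PIGQ) and 4 to 7 with 1 library left out. Of all genes 8.07% were called by DESeq2, 7.36% with all 6 groups, 5.19% with the block and 6.27% to 9.56% without 1 library. At 0.05, 451 of 14444 genes were called higher and 1612 lower. With thapsigargin the 10 called became 17 at 0.05, 17 by DESeq2, 18 with all 6 groups and 2 to 17 with 1 library left out. The last 3 settings called 11.7%, 17.6% and 5.23% to 27.2% of all genes. The threshold of 0.05 called 1034 of 14358 genes higher and 1984 lower. At 100 against 10 ng/mL the 2 became 4 with all 6 groups, 6 with the block and 0 to 2 without 1 library. The matching shares of all genes were 4.18%, 8.41% and 0.0% to 3.37%. For thapsigargin without doxycycline the 2 became 4 at 0.05, 5 with the block and 1 to 2 without 1 library, and at 10 ng/mL the 1 became 5 with the block and 1 to 1 without 1 library. In both, the block called 17.2% of the members and 24.8% of all genes. Without 1 library, 5.02% to 13.0% of all genes were called without doxycycline and 0.188% to 3.32% at 10 ng/mL. At 0.05, 1753 of 14397 genes were called higher and 1507 lower without doxycycline. Where 0 members were called, the alternatives gave 1 (DESeq2), 2 (no filter), 1 (block) and 0 to 3 (1 library left out) at 10 against 0 ng/mL in vehicle. They gave 2 (adjusted p of 0.05), 3 (DESeq2), 2 (no filter), 8 (all 6 groups) and 0 to 7 (1 library left out) for thapsigargin at 100 ng/mL, 2 (DESeq2), 2 (block) and 0 to 0 at 10 against 0 ng/mL with thapsigargin, and 1 (adjusted p of 0.05), 1 (DESeq2) and 0 to 2 for the interaction. In the order given, DESeq2 called 1.93%, 3.68%, 0.196% and 1.65% of all genes in these comparisons. The block called 0.855% in the first and 3.89% in the third, and all 6 groups 6.26% in the second. Without 1 library the shares of all genes were 0.0% to 18.8%, 0.0273% to 17.6%, 0.0% and 0.0134% to 8.6%. At 0.05, 152 of 14427 genes were called higher and 342 lower in the second. In the fourth 69 of 14768 were called higher and 80 lower. Without the filter, 110 of 19818 genes were called higher and 189 lower in the second. RLE size factors kept every count within 1.5 times. Same-numbered libraries deviated together most evenly between 10 and 0 ng/mL with thapsigargin. Whether they share an origin in the other comparisons was not tested. The cause of these shifts was not tested.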
